A study of Mus musculus with 12 samples.

Results

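Hepatic stellate cell and myofibroblast markers were followed in whole-liver RNA from 12 female mice aged 3 to 4 months. The set held 10 genes, chosen by name from the 41743 genes in the tables: Reln, Ngfr, Des, Pdgfrb and Pdgfra as stellate cell and pericyte markers, Thy1 and Dpt as portal fibroblast markers, Acta2 and Tagln as contractile markers, and Vim as a general mesenchymal marker. There were 4 groups of 3 mice, and no treatment is named. YAP KO mice (C57BL/6) carried Foxa3-Cre with Yap1 fl/fl and a ROSA-stop fl/fl-EYFP reporter, and were set against WT (C57BL/6) littermates. YAP KO TAZ HET mice (mixed C57BL/6-FVB) carried Foxa3-Cre with Yap1 deleted and Wwtr1, the gene for TAZ, heterozygous, and were set against WT (mixed) littermates. The allele make-up of the sequenced WT littermates is not given in the sources used here. Foxa3-Cre acts in the foregut endoderm, which gives rise to hepatocytes and cholangiocytes, and not to stellate cells or fibroblasts. The paper also mentions evidence, not shown there, that this Cre line acts in the developing kidney, a mesodermal organ. Whether it acts in stellate cells or fibroblasts was not tested. The models also differ in strain background, so the TAZ allele and the background cannot be told apart when the models are set side by side.

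Hepatic stellate cells are the vitamin A-storing pericytes of the sinusoid. After injury they can lose their stores, divide in response to platelet-derived growth factor, and become myofibroblasts, which carry contractile filaments of alpha smooth muscle actin (Acta2) and transgelin (Tagln) and lay down collagen. Portal fibroblasts are a separate mesenchymal cell around the bile ducts and can also become myofibroblasts, while arterial smooth muscle holds the contractile genes in the resting liver. In bulk liver RNA, more cells of a type and more RNA per cell cannot be told apart.

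The values are TPM (transcripts per 1000000), which scale reads for gene length and for the library total, so levels can be compared between genes. Yap1 was at 28.2 to 30.5 TPM in WT (C57BL/6) and 1.67 to 3.72 TPM in YAP KO livers. WT (mixed) livers held 31.0 to 33.2 TPM of it and YAP KO TAZ HET livers 8.63 to 11.5 TPM. Wwtr1 was at 13.3 to 16.7 TPM in YAP KO against 6.26 to 6.83 TPM in WT (C57BL/6) (adjusted p 0.00186, limma), and at 11.5 to 14.1 TPM with YAP KO TAZ HET against 7.73 to 8.38 TPM in WT (mixed) (adjusted p 0.0743). Between 14442 and 15047 genes were above 0 in a liver, and the number of reads behind each value is unknown. Summed hepatocyte markers had a median of 109310 TPM in WT (C57BL/6) and 82063 in YAP KO livers, and of 104930 in WT (mixed) and 85506 in YAP KO TAZ HET livers. Before scaling, the median gene was 0.28 higher in YAP KO and 0.24 higher in YAP KO TAZ HET livers on the log2 scale. Fold changes are from TPM scaled between libraries, on the log2(scaled TPM + 1) scale, which understates the change of low genes, and are tested with limma with Benjamini-Hochberg adjustment over all genes tested. After scaling the median gene changed by -0.04 in each model.

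Before the members are described, 1 liver has to be named. YAP KO TAZ HET mouse LM225 had the lowest value of its group in 13 of 16 quiescent stellate cell genes, which summed to 247 TPM against 421 and 425 TPM in the other 2 mice and 316 to 332 TPM in WT (mixed) livers. Lrat, the enzyme that esterifies retinol for storage in stellate cells, was at 2.59 TPM in LM225 and at 10.1 and 9.33 TPM in the others. The same mouse had the lowest Reln, Ngfr, Des, Thy1 and Pdgfrb of its group, and the highest Vim. Results that rest on this mouse are given with and without it. LM225 was picked out by its low values in these genes, so leaving it out raises their group mean. A call gained in this way is not independent support. The same limit holds below wherever the mouse left out had the lowest value of its group.

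All 10 markers were above 0 in every liver and passed the filter on low values in every fit. Vim was the most abundant, at a mean of 41.3 TPM over the 12 livers, followed by Tagln at 13.4, Dpt at 12.3, Reln at 10.9 and Pdgfrb at 9.24 TPM, and Des, Acta2, Thy1, Pdgfra and Ngfr lay between 2.50 and 4.50 TPM. In YAP KO livers 5 of the 10 markers rose and none fell: Pdgfrb, Dpt, Vim, Tagln and Pdgfra. Of all 11704 genes tested there, 36.7% were called and 18.8% were called higher. In YAP KO TAZ HET livers 3 of the 10 rose and none fell: Pdgfrb, Vim and Pdgfra, where 38.2% of 11741 genes were called and 19.2% were called higher. The median marker changed by 0.67 and by 0.52 in the models. In TPM as deposited, 7 markers had all 3 YAP KO livers above every WT liver and 6 had all 3 YAP KO TAZ HET livers above, where 47.5% and 44.4% of all genes tested did so. After scaling these were 7 and 3 markers, where 24.5% and 24.5% of all genes tested did so. A gene was tested when 3 or more livers reached 1 TPM. For Acta2 in the C57BL/6 set and Pdgfra in the mixed set all 3 model livers reached 1 TPM, but not all 3 WT livers. With no filter the same number of markers rose, 5 and 3.

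**Figure D1:**
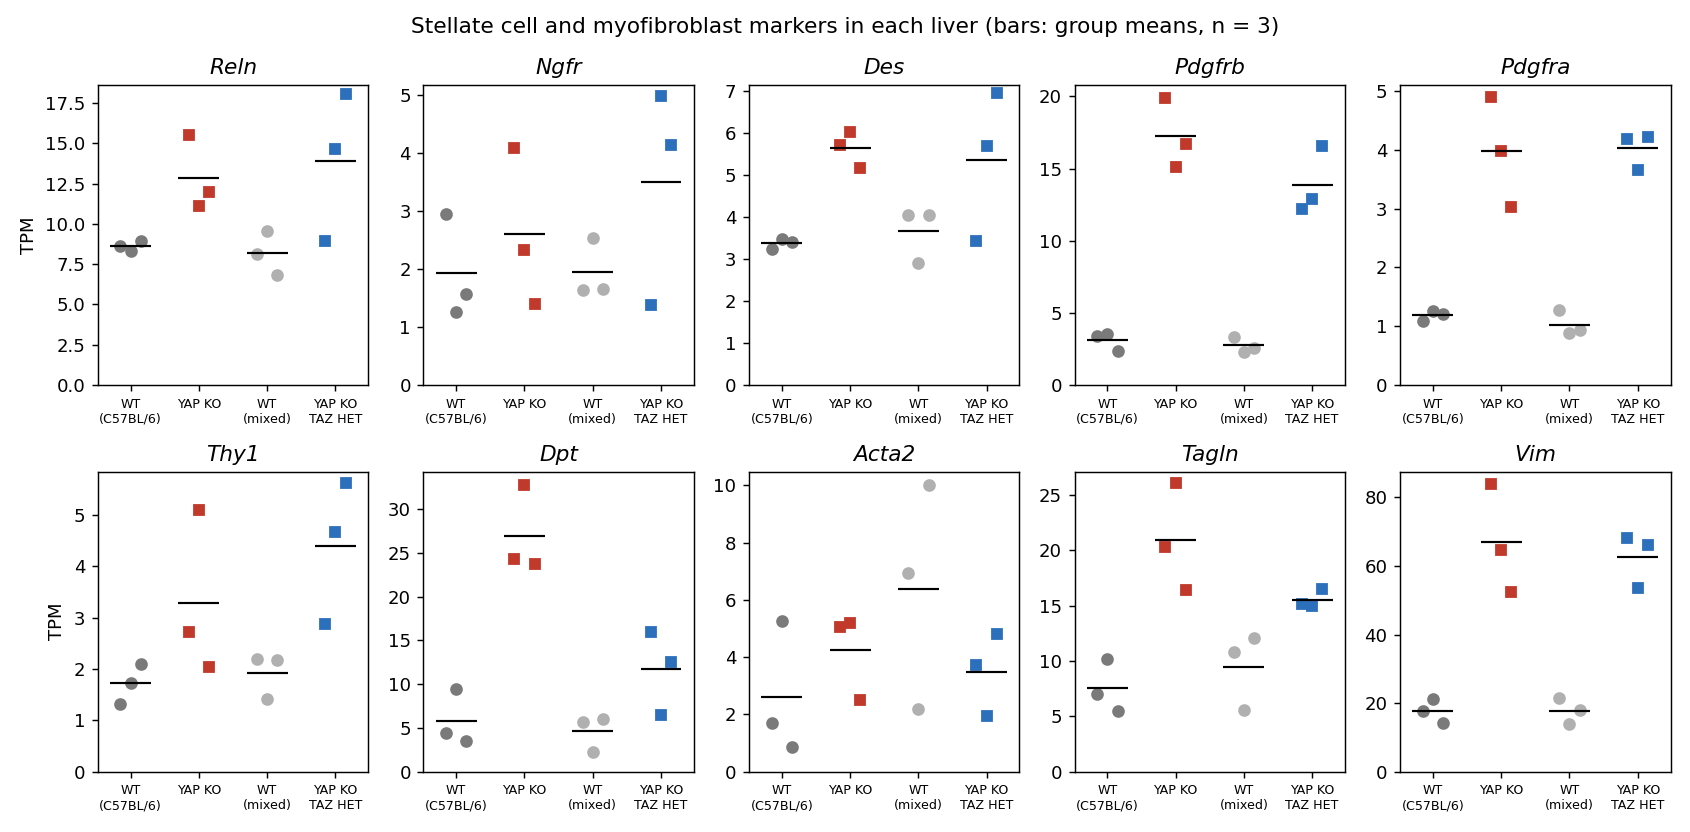
TPM of the 10 markers in each of the 12 livers, 1 panel per gene with its own linear axis from 0, in 4 groups of 3 with the group mean as a bar. Pdgfrb, Pdgfra and Vim of both models lie clear of the WT livers, Dpt is highest in YAP KO livers, and the Acta2 values of every group overlap.

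The receptors for platelet-derived growth factor rose in both models. Pdgfrb (chr18:61045150-61085061, GRCm38), the receptor that drives division and migration of activated stellate cells, was at 19.9, 15.1 and 16.7 TPM in YAP KO livers, against 3.40, 3.56 and 2.38 TPM in WT (C57BL/6). YAP KO TAZ HET livers held 12.2, 12.9 and 16.5 TPM and WT (mixed) livers 3.32, 2.30 and 2.60 TPM. The groups lay far apart in both sets. The log2 fold changes were 1.85 ± 0.15 (SE) and 1.72 ± 0.16, with limma adjusted p of 7.8e-05 and 1.47e-04.

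Pdgfra (chr5:75152292-75198215), the alpha receptor, which stellate cells and portal fibroblasts both carry, was far lower. It was at 1.09, 1.26 and 1.22 TPM in WT (C57BL/6) and at 4.90, 3.99 and 3.03 TPM in YAP KO livers. Among the mixed mice, WT livers held 1.27, 0.888 and 0.930 TPM and YAP KO TAZ HET livers 4.19, 3.66 and 4.22 TPM. Again no model liver overlapped a WT liver, and the changes were 0.92 ± 0.15 (adjusted p 0.0026, limma) and 1.10 ± 0.13 (adjusted p 5.13e-04). The ratio of Pdgfrb to Pdgfra within a liver had a geometric mean of 2.58 in WT (C57BL/6) against 4.40 in YAP KO, and of 2.67 in WT (mixed) against 3.42 in YAP KO TAZ HET livers, with no overlap in either set. This ratio was chosen after the values were seen and carries no test.

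Of the 15 ligands and receptors listed with them, 9 rose and 1 fell in YAP KO livers with no filter on low values (median 0.70), and 9 rose and none fell in YAP KO TAZ HET livers (median 0.47), where 14.1% and 14.7% of all genes above 0 rose. With the filter, 4 and 3 of the listed genes were tested only because the model livers were high, Pdgfb, Pdgfc and Tgfb3 in both and Tgfb2 in YAP KO, and these could hardly have been called lower. Pdgfa, a ligand of the alpha receptor, reached 16.9 to 20.3 TPM in YAP KO livers against 2.71 to 3.77 TPM in WT (C57BL/6). It reached 17.9 to 23.2 TPM with YAP KO TAZ HET against 3.29 to 4.23 TPM in WT (mixed). Its log2 changes were 1.89 ± 0.13 and 1.91 ± 0.15. Pdgfc, a ligand that mainly binds the alpha receptor, rose by 1.86 ± 0.20 and 1.75 ± 0.20, and did so with no filter (adjusted p 0.00162 and 0.00187, limma). Tgfb1, the ligand that drives collagen synthesis in myofibroblasts, rose less, by 0.70 ± 0.18 and 0.62 ± 0.15, and its receptor Tgfbr2 by 1.89 ± 0.11 and 1.69 ± 0.14. The Tgfb1 call in YAP KO was lost without WT mouse LM193. Vldlr, a receptor for Reelin, fell by 1.19 and 0.84 on the log2 scale (adjusted p 0.0208 and 0.0421, limma). With no filter the second was not called (adjusted p 0.0802), and both calls were lost without scaling (adjusted p 0.0524 and 0.102).

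**Figure D2:**
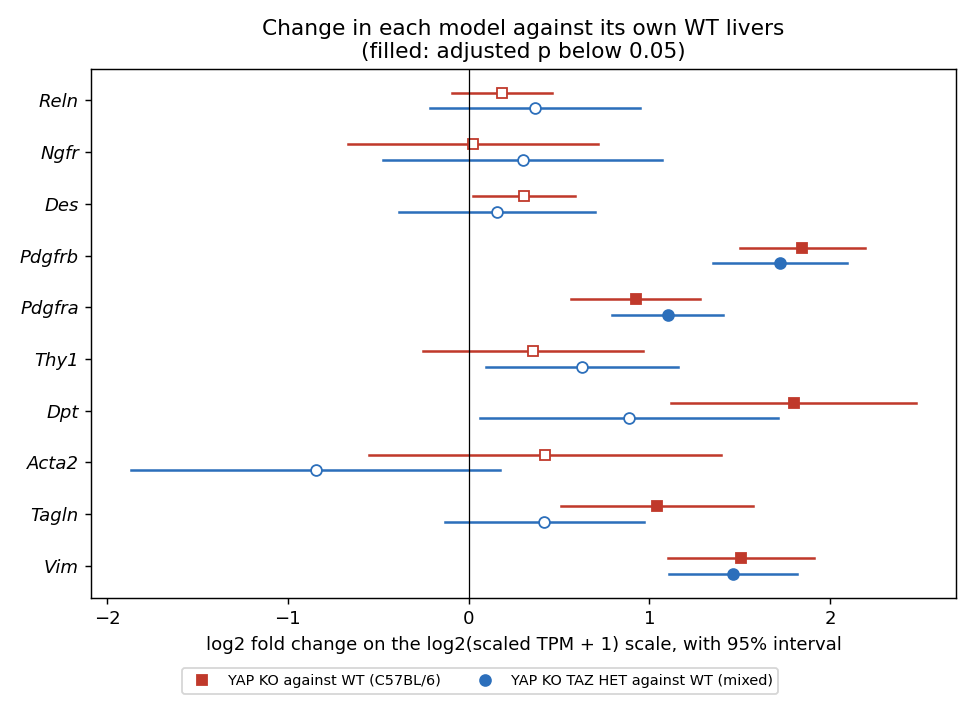
Log2 fold change of each marker against the WT livers of its own set, with the 95% interval, for YAP KO (squares) and YAP KO TAZ HET (circles), 3 livers against 3 each. Filled symbols passed an adjusted p of 0.05. Pdgfrb, Pdgfra and Vim passed in both models, Dpt and Tagln in YAP KO, and the Acta2 intervals are the widest and cover 0.

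The other stellate cell markers of the set, Des, Reln and Ngfr, moved little next to the receptors. Des (chr1:75360329-75368579), the intermediate filament desmin of stellate cells and muscle, was at 3.24, 3.47 and 3.40 TPM in WT (C57BL/6) and at 5.71, 6.01 and 5.17 TPM in YAP KO livers. The TPM groups did not overlap, but after scaling the change of 0.31 ± 0.12 missed the threshold (adjusted p 0.0826, limma). Des was at 3.44, 5.68 and 6.94 TPM in the YAP KO TAZ HET mice and at 4.06, 2.89 and 4.04 TPM in WT (mixed), which overlap (0.16 ± 0.24, adjusted p 0.633).

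Reln (chr5:21884454-22344702), the secreted glycoprotein Reelin, which marks stellate cells at rest and after activation, was at 8.66, 8.31 and 8.92 TPM in WT (C57BL/6) and 15.5, 11.1 and 11.97 TPM in YAP KO livers. WT (mixed) livers held 8.13, 9.55 and 6.83 TPM and YAP KO TAZ HET livers 8.92, 14.7 and 18.1 TPM, where LM225 lies inside the WT range. Neither scaled change passed, at 0.18 ± 0.12 and 0.37 ± 0.25 (adjusted p 0.265 and 0.287, limma). Without LM225 the YAP KO TAZ HET change was 0.66 ± 0.16 (adjusted p 0.0166).

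Ngfr (chr11:95568818-95587735), the low-affinity neurotrophin receptor of stellate cells and nerve glia, was the lowest of the markers by mean. It was at 2.95, 1.26 and 1.58 TPM in WT (C57BL/6) and 4.10, 2.32 and 1.39 TPM in YAP KO livers, which overlap throughout (0.02 ± 0.30, adjusted p 0.960, limma). The YAP KO TAZ HET mice had 1.38, 4.99 and 4.14 TPM against 1.65, 2.54 and 1.66 TPM in WT (mixed). LM225 was below every WT liver there and the other 2 above; the change was 0.30 ± 0.34 with all mice (adjusted p 0.517) and 0.71 ± 0.19 without LM225 (adjusted p 0.0231). The 5 glial markers summed to 0.735 to 1.71 TPM over all livers and none passed the filter.

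The wider list of 16 quiescent stellate cell genes split in both models. Of all genes tested, 36.7% and 38.2% were called in the models, and 18.8% and 19.2% were called higher. Of the 15 list genes tested, 4 rose and 7 fell in YAP KO livers (median -0.17), 1 of the 4 in only 1 of 6 fits with a mouse left out. In YAP KO TAZ HET livers 5 rose and 4 fell (median -0.05). That second median was 0.36 without LM225, -0.36 without LM250 and -0.21 without LM251, each with 5 up and 4 down, and 0.07 without WT mouse LM230, so its direction rests on single mice. Adamtsl2, a secreted matrix protein, rose by 1.73 ± 0.30 and 1.83 ± 0.16. Ecm1, extracellular matrix protein 1, the most abundant gene of the list, was at 138 to 148 TPM in WT (C57BL/6) and fell to 58.2 to 65.2 TPM in YAP KO livers (-1.53 ± 0.09). In YAP KO TAZ HET livers it was at 54.1 TPM in LM225 and at 125 and 116 TPM in the others, against 150 to 157 TPM in WT (mixed) (-1.05 ± 0.31, adjusted p 0.0273, limma). That call was lost without scaling (-0.73, adjusted p 0.0604), and without any 1 of the WT mice. Angptl6, a secreted angiopoietin-like factor, fell by 2.35 and 1.83 on the log2 scale. Colec11, a secreted collectin, did not pass in either, at -0.17 ± 0.10 and -0.05 ± 0.35. Gfap, often used to mark rodent stellate cells, stayed at or below 0.443 TPM in every liver and was not tested.

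Of the portal fibroblast markers, Dpt rose in YAP KO livers and Thy1 passed in neither model. Dpt (chr1:164796644-164824266), the matrix protein dermatopontin of portal and capsular fibroblasts, was at 4.43, 9.41 and 3.55 TPM in WT (C57BL/6) and 24.3, 32.7 and 23.8 TPM in YAP KO livers, which lay clear of each other (1.80 ± 0.29, adjusted p 0.00237, limma). The YAP KO TAZ HET mice had 15.98, 6.51 and 12.6 TPM, against 5.69, 2.24 and 6.08 TPM in WT (mixed). The change there was 0.89 ± 0.36 (adjusted p 0.0842), or 1.21 without mouse LM250, which had the lowest value (adjusted p 0.0312). Dpt was the only marker with all 3 YAP KO TAZ HET livers below all 3 YAP KO livers, at 0.433 of the YAP KO mean. The exact two-sided permutation p was 0.1, the smallest that 3 against 3 allows. At that p, 1 of 10 markers is what unchanged genes would give on average. The share of all genes separated in this way was not counted. The difference between the changes of the models was 0.90 on the log2 scale with a 95% interval of -0.24 to 2.05 and did not pass (adjusted p 0.998).

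Thy1 (chr9:44043384-44048579), the surface glycoprotein CD90 of portal fibroblasts, is also carried by T cells. It was at 1.33, 1.73 and 2.11 TPM in WT (C57BL/6) and 2.72, 5.09 and 2.03 TPM in YAP KO livers, where a single mouse, LM189, stood high (0.36 ± 0.26, adjusted p 0.324, limma). WT (mixed) livers held 2.20, 1.41 and 2.17 TPM and YAP KO TAZ HET livers 2.88, 4.66 and 5.63 TPM, all above WT in TPM but not after scaling (0.63 ± 0.23, adjusted p 0.0636). Without LM225 it passed there (0.86 ± 0.18, adjusted p 0.00851). The 9 T cell markers summed to 14.7 TPM in LM189, the highest of all livers, and to 5.18 to 9.79 TPM in the other model livers against 4.69 to 7.20 TPM in WT; with no filter none of the 9 passed in YAP KO and 2, Cd2 and Cd3g, rose in YAP KO TAZ HET livers. Neither rose with quantile normalization. Their part in the Thy1 level was not tested.

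Among other portal fibroblast genes, 6 of 11 above 0 rose and none fell in YAP KO livers with no filter (median 1.04). In that fit 14.1% of all genes above 0 rose, and 14.7% in the fit of YAP KO TAZ HET livers. In YAP KO TAZ HET livers 5 of 12 rose and 1 fell (median 0.57), the last being Ogn, the proteoglycan osteoglycin (-0.48, adjusted p 0.0225, limma). With the filter, 3 genes tested in each model reached 1 TPM in all 3 model livers but not in all 3 WT livers, among them Fbln2 and, in YAP KO, Pi16. Lum, the collagen-binding proteoglycan lumican, was at 49.2 to 74.4 TPM in YAP KO against 7.49 to 9.36 TPM in WT (C57BL/6) livers (2.41 ± 0.14). With YAP KO TAZ HET it was at 37.3 to 53.1 TPM against 6.08 to 7.44 TPM in WT (mixed) (2.18 ± 0.18). Entpd2, the ecto-nucleotidase of portal fibroblasts, rose by 2.001 ± 0.12 and 1.90 ± 0.11. Col15a1, a basement membrane collagen, rose in YAP KO livers by 1.33 ± 0.15 and was at 0.62 ± 0.28 in YAP KO TAZ HET livers (adjusted p 0.121). Of 6 mesothelial genes, Wt1 was at 0 to 0.316 TPM in WT and 1.51 to 2.54 TPM in model livers, and Msln at 0.296 to 1.39 TPM in WT and 1.21 to 5.26 TPM in model livers. Both were tested only because the model livers were high. With no filter Wt1 rose in both models, and Msln rose in YAP KO (adjusted p 0.0101, limma) and missed in YAP KO TAZ HET livers (adjusted p 0.0759). Their part in the Dpt level was not tested.

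The contractile markers did not move together. Acta2 (chr19:34241090-34255590, minus strand), the defining filament of the myofibroblast, was at 1.71, 5.26 and 0.877 TPM in WT (C57BL/6) and at 5.04, 5.19 and 2.52 TPM in YAP KO livers. YAP KO TAZ HET livers held 3.72, 1.96 and 4.81 TPM and WT (mixed) livers 6.94, 2.18 and 10.02 TPM. The groups overlap in both sets, and the WT livers alone span more than the models, with a coefficient of variation of 89.0% in WT (C57BL/6) and 61.9% in WT (mixed). The changes were 0.42 ± 0.42 (95% interval -0.55 to 1.398, adjusted p 0.467, limma) and -0.85 ± 0.45 (-1.87 to 0.18, adjusted p 0.168). Without WT mouse LM227, whose value was the lowest of its group, the second was -1.37 and passed (adjusted p 0.0139). The intervals hold both a rise and a fall of Acta2 in each model, so no change was detectable with these mice.

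Tagln (chr9:45929619-45936058), transgelin, an actin-binding protein of smooth muscle and early myofibroblasts, rose in YAP KO livers. It was at 7.03, 10.2 and 5.44 TPM in WT (C57BL/6) and at 20.3, 26.0 and 16.4 TPM in YAP KO livers (1.04 ± 0.23, adjusted p 0.00927, limma). WT (mixed) livers held 10.8, 5.61 and 12.1 TPM, and the YAP KO TAZ HET mice 15.1, 14.99 and 16.5 TPM. The latter lay above WT in TPM and overlapped after scaling (0.42 ± 0.24, adjusted p 0.201). The 3 YAP KO TAZ HET values agreed closely while the WT values spread over a wider range. An exon of Tagln overlaps Pcsk7, a protease gene on the opposite strand at 10.4 to 15.1 TPM, and without a stated strand setting reads in the overlap cannot be told apart. Pcsk7 itself was at -0.11 and -0.30 in the models.

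Other contractile genes did not all follow Tagln. Of 7 tested, 3 rose and 1 fell in YAP KO livers and 3 rose and 3 fell in YAP KO TAZ HET livers. Of all genes tested, 36.7% and 38.2% were called in the models, and 18.8% and 19.2% were called higher. Of all 12 with no filter, 3 rose and 1 fell, and 3 rose and 4 fell, where 14.1% and 14.7% of all genes above 0 rose. With so few genes the split cannot be set apart from these shares. Tpm1, a tropomyosin that many cell types use, rose by 1.59 ± 0.11 and 1.69 ± 0.17, and Cald1, caldesmon, by 0.52 ± 0.10 and 0.39 ± 0.12, the second in only 2 of 6 fits with a mouse left out. Mylk, myosin light chain kinase, had a mean of 24.4 TPM in WT (C57BL/6) and 24.3 TPM in YAP KO livers. Its changes of -0.36 and -0.48 passed only after scaling, against -0.01 and -0.17 without it (adjusted p 0.947 and 0.410, limma), and in 1 and 2 of 6 fits with a mouse left out. Tpm2 and Myl9, the beta tropomyosin and the regulatory myosin light chain of smooth muscle, fell in YAP KO TAZ HET livers by 0.94 and 0.71 and were at -0.17 ± 0.30 and -0.31 ± 0.24 in YAP KO livers. The Myl9 call was lost without scaling (-0.45, adjusted p 0.138, limma), and held in 1 of 6 fits with a mouse left out. Myh11, Cnn1 and Actg2, which define mature smooth muscle, stayed at or below 2.56 TPM in every liver and did not pass the filter in the fit of either model. With no filter Myh11 and Cnn1 fell in YAP KO TAZ HET livers, by 1.2005 and 0.80 on the log2 scale (adjusted p 0.0102 and 0.00993, limma).

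Promoter letters were searched for 2 elements, that of the TEAD factors, through which YAP and TAZ act, and that of serum response factor, which acts in smooth muscle genes. RefSeq promoters (GRCm38.p6) were found for 7 of the 10 markers (Acta2, Des, Dpt, Ngfr, Pdgfra, Reln and Vim) and the 250 bases before each start site were searched. The TEAD element GGAATG, or CATTCC as its other strand, was found in 1 of the 7, Acta2, 146 bases before the start. It was found in 12.6% of all 32851 promoters, so 1 match among 7 is near the share of all promoters. The CArG box, bound by serum response factor, was found in none of the 7 in its strict form (1.47% of all promoters). With 1 other base allowed in its A and T middle it was found in Acta2 alone, 84 and 34 bases before the start, and in 8.59% of all promoters. These stretches of 30 bases lie within the first exon that GENCODE M21 draws for Acta2, which starts further upstream than the RefSeq one. They are shown 5′ to 3′ on the minus strand with the matched letters in capitals, at chr19:34255502-34255531, chr19:34255438-34255467 and chr19:34255388-34255417. A match is a description of letters, and binding was not tested here.
Acta2, TEAD element: gagcagaacagaGGAATGcagtggaagaga
Acta2, upstream CArG-like box: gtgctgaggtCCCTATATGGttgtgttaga
Acta2, downstream CArG-like box: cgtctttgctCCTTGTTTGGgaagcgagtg

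Vim (chr2:13573927-13582826), the intermediate filament vimentin of mesenchymal, endothelial and immune cells, rose in both models. It was at 17.8, 21.2 and 14.1 TPM in WT (C57BL/6) and at 84.0, 64.6 and 52.5 TPM in YAP KO livers. The YAP KO TAZ HET mice had 68.2, 53.5 and 66.1 TPM, against 21.5, 13.8 and 17.97 TPM in WT (mixed). The changes were 1.51 ± 0.18 (adjusted p 4.76e-04, limma) and 1.46 ± 0.15 (adjusted p 2.59e-04), and no groups overlapped.

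Markers of other liver cell types were counted in the same way. Of all genes tested, 36.7% were called and 18.8% were called higher in YAP KO livers. In YAP KO TAZ HET livers these shares were 38.2% and 19.2%. Of 10 macrophage genes 9 rose in each model (medians 1.18 and 1.09), and they summed to 544 to 855 TPM in YAP KO against 218 to 268 TPM in WT (C57BL/6), and to 825 to 1018 TPM with YAP KO TAZ HET against 193 to 414 TPM in WT (mixed). Marco, a scavenger receptor of Kupffer cells, rose by 2.71 ± 0.14 and 2.84 ± 0.34. Of 10 endothelial genes 1 rose and 2 fell, and 2 rose and 2 fell (medians -0.07 and -0.12). Of 5 tested cholangiocyte genes 2 rose in each model, Spp1 and Sox9, and Epcam, tested there through the WT livers alone, fell in YAP KO TAZ HET livers, also with no filter (adjusted p 0.00306, limma). Of 8 hepatocyte genes 4 fell in each model and none rose. The part of these cell types in the levels of Vim and the other markers was not tested.

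**Figure D3:**
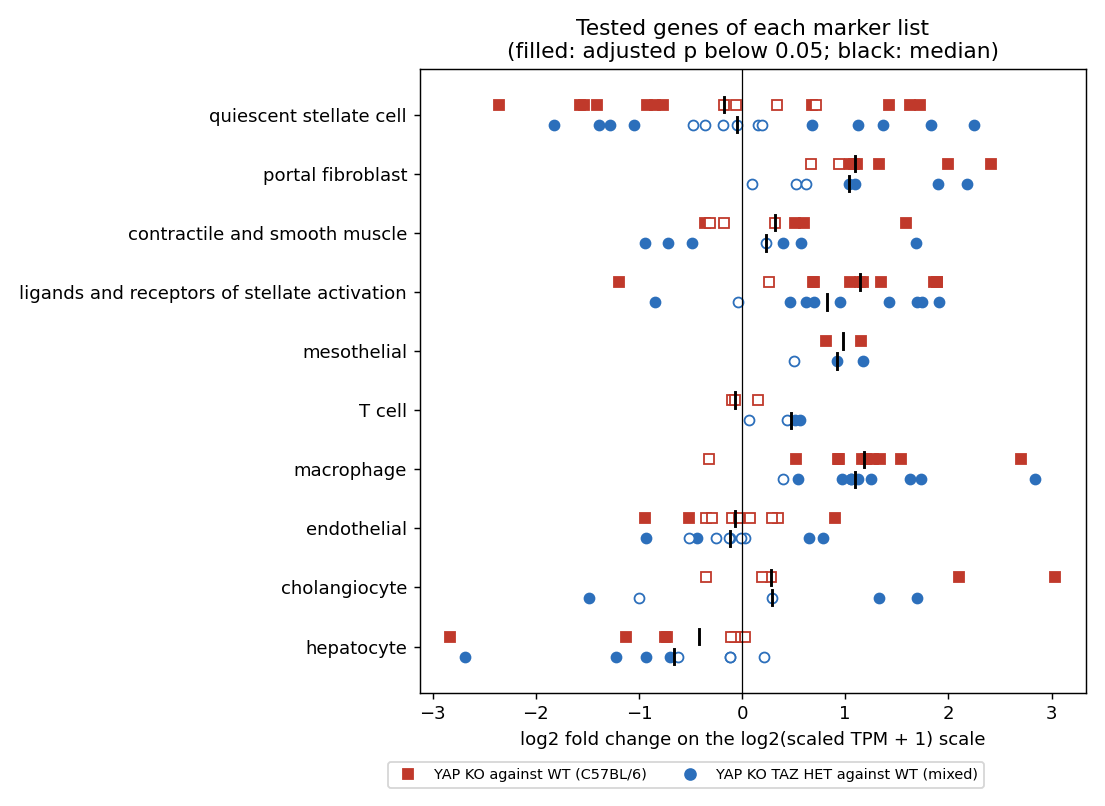
Log2 fold change of every tested gene of 10 marker lists in YAP KO (squares) and YAP KO TAZ HET livers (circles) against their own WT livers, filled where the adjusted p was below 0.05, with the list median in black. Genes low in every liver are not drawn, which leaves out some that were lower in the models. Some drawn portal fibroblast, ligand and receptor, mesothelial and macrophage genes passed the filter through the model livers alone and could hardly lie below 0. Among them are both mesothelial genes drawn for YAP KO. Portal fibroblast, ligand and receptor, mesothelial and macrophage genes lie mostly above 0, quiescent stellate cell genes lie on both sides, and hepatocyte genes lie mostly below 0.

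The models were then compared with each other. No marker passed for the difference between the changes of the models in a single limma fit of all 12 livers, in which 7 of 12159 genes (0.0576%) passed and 555 had an unadjusted p under 0.05. No marker reached an unadjusted p under 0.05. The differences (YAP KO minus YAP KO TAZ HET) were 1.26 for Acta2 (95% interval -0.26 to 2.78), 0.90 for Dpt and 0.62 for Tagln (-0.19 to 1.42), and between -0.28 and 0.14 for the other 7. For Pdgfrb the interval was -0.37 to 0.62 and for Vim -0.51 to 0.58, so a difference of up to about these sizes was not detectable. Nor did a marker pass between the WT groups, where 0.216% of 11126 genes did. Acta2 was the marker with the greatest WT difference, at 0.998 higher on the log2 scale in WT (mixed) livers (-0.20 to 2.20, adjusted p 0.902), and the values of all 10 overlapped between the WT groups.

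Ratios within a liver need no scaling between libraries, and are given as geometric means with no test. Pdgfrb to Des was 0.909 in WT (C57BL/6) and 3.05 in YAP KO livers, and 0.748 in WT (mixed) and 2.68 with YAP KO TAZ HET, a ratio chosen after the values were seen, and no model liver overlapped a WT liver. Dpt to Des was 3.02 times as high in YAP KO as in WT livers without overlap, and 1.81 times as high with overlap in YAP KO TAZ HET livers. Tagln to Des was 1.69 times as high in YAP KO as in WT livers without overlap, and 1.21 times as high with overlap in YAP KO TAZ HET livers. Acta2 to Des was at 1.22 and 0.433 times WT and Acta2 to Reln at 1.37 and 0.373 times WT in the models, all with overlap. Thy1 to Des was at 1.08 times WT with overlap in YAP KO livers and at 1.58 times without overlap in YAP KO TAZ HET livers, where it was 0.811 to 0.838 in all 3 mice against 0.488 to 0.542 in WT. Acta2 to Vim was at 0.172 of WT in YAP KO TAZ HET livers, with all 3 below every WT liver, and was at 0.538 of WT with overlap in YAP KO livers. Acta2 to Tagln, another ratio chosen after the values were seen, was at 0.356 of WT without overlap in YAP KO TAZ HET livers and at 0.721 with overlap in YAP KO livers. With each mouse left out in turn these ratios kept their side of 1, with 3 exceptions in YAP KO livers. These were Thy1 to Des, which ranged from 0.862 to 1.27, Acta2 to Des, from 0.802 to 1.95, and Acta2 to Reln, from 0.896 to 2.28.

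**Figure D4:**
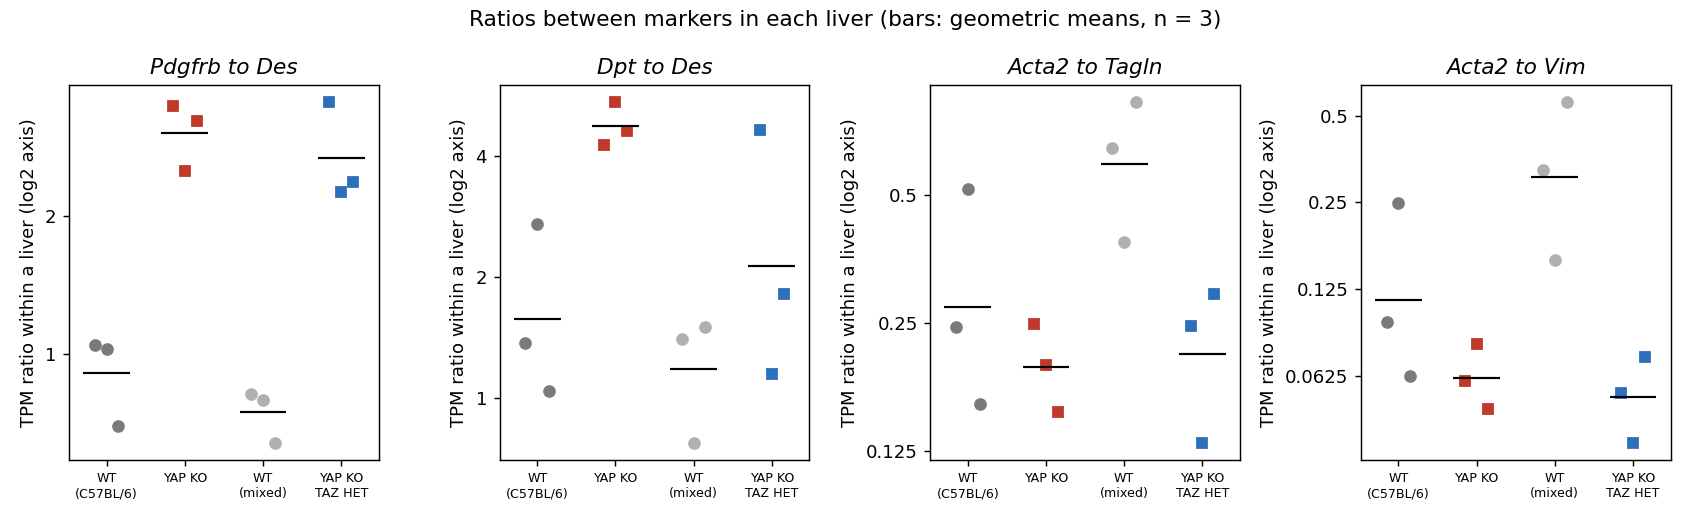
TPM ratios of Pdgfrb to Des, Dpt to Des, Acta2 to Tagln and Acta2 to Vim within each liver, on a log2 axis, with the geometric mean of each group of 3 as a bar. Pdgfrb to Des is higher in all 6 model livers than in all 6 WT livers, and Acta2 to Vim has its lowest geometric means in the models, at 0.0526 in YAP KO TAZ HET and 0.0614 in YAP KO livers, which overlap.

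Within groups some markers varied together. After subtracting each group's mean from log2(scaled TPM + 1), Acta2 varied with Tagln (Pearson r 0.91), Dpt (0.90) and Vim (0.85) over the 12 livers, and Tagln with Dpt (0.80). Reln varied with Ngfr (0.79) and Des (0.62), and Des with Thy1 (0.79). Between Acta2, Tagln, Dpt and Vim on 1 side and Reln and Ngfr on the other, r lay between -0.56 (Dpt and Ngfr) and 0.01 (Vim and Ngfr). Des and Thy1 were not set apart in this way, with r of up to 0.51 (Tagln and Des) and 0.55 (Tagln and Thy1). Vim also varied with Pdgfra (0.73) and Pdgfrb (0.66). Among the genes of the marker lists, Acta2 varied most with the smooth muscle gene Myh11 (0.92) and the microfibril gene Mfap4 (0.89), and Dpt with Mfap4 (0.93). Des varied with Ecm1 (0.87), Rgs5 (0.86) and Lrat (0.85), genes of the quiescent stellate cell list. These values describe 12 livers that share 4 group means and scaling factors, and carry no test. WT (mixed) mouse LM227 and YAP KO mouse LM191 each held the lowest value of their group in 8 of the 10 markers. They were also lowest in 9 of 10 macrophage genes each.

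**Figure D5:**
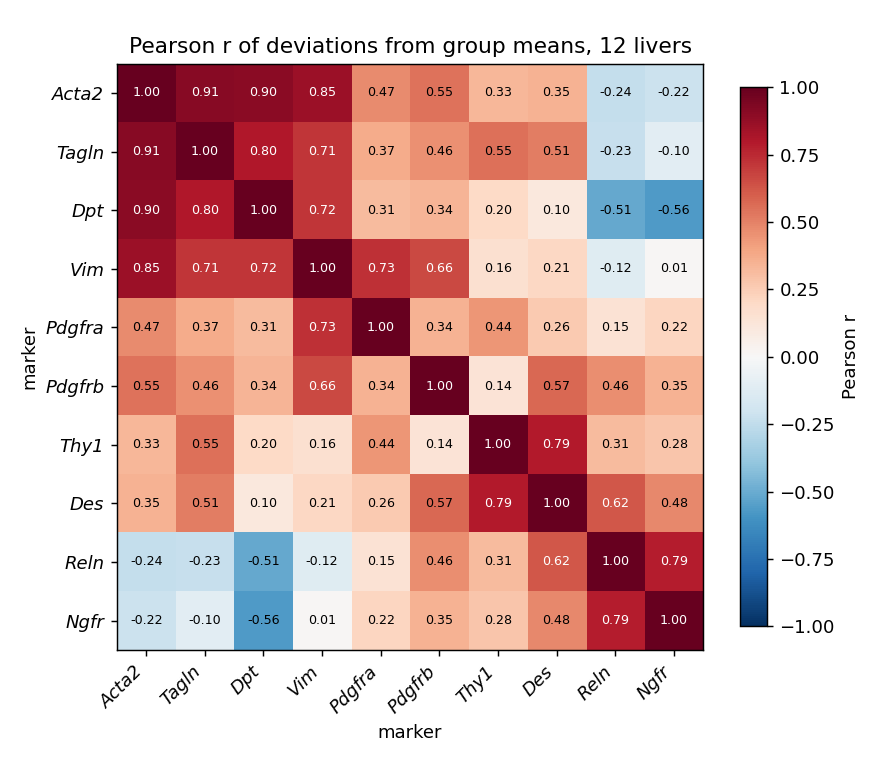
Pearson r between markers of the deviations from the group mean of log2(scaled TPM + 1), over 12 livers, from -1 (blue) to 1 (red). Acta2, Tagln, Dpt and Vim form a block with r of 0.71 to 0.91, and Reln and Ngfr (0.79) stand apart from it.

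Over the 12 livers with group differences kept, the genes whose pattern was nearest to Pdgfrb among 12159 were Tmsb10 (r 0.996), Trem2 (0.991) and Tmem176a (0.991). For Dpt they included P3h3 (0.955) and Gabra3 (0.940), and for Tagln the cytoplasmic actins Actg1 (0.937) and Actb (0.925) with Ihh (0.911). For Acta2 the likeness was lower, at 0.854 for Catsper2, 0.847 for Pja2 and 0.799 for Mgp. The longest Acta2 transcript matches Actb at 83.8% identity over 1111 of 2035 bases, and Actb reached 1011 TPM, so reads shared between actins make the low Acta2 level less certain. For Reln the nearest were Lin37 (0.926), Tbck (0.912) and Gmds (0.874), for Des Lmo4 (0.882), Rab20 (0.866) and Trim35 (0.861), and for Thy1 Tinag (0.924), Il20rb (0.909) and Pter (0.897).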

How the data were processed

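RNA of whole frozen liver from 12 mice was sequenced as paired-end reads on an Illumina NovaSeq. In CLC Genomics Workbench the authors mapped these reads on GRCm38.p6, assigned them to genes, and deposited a TPM value per gene and mouse. Strand setting and treatment of reads with several matches are not given in the sources used here. The authors also deposited scores of their own edgeR comparisons (fold changes, p-values and false discovery rates), which were not used.

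TPM values were scaled between libraries by the trimmed mean of log ratios (30% of ratios and 5% of levels trimmed at each end), 1 was added and log2 taken. A gene entered a fit when 3 or more of its libraries reached 1 TPM. The test was limma 3.58.1 (R 4.3.3) with trended eBayes shrinkage, two-sided, with Benjamini-Hochberg adjustment over all genes and a threshold of 0.05. Intervals are 95%. Each model and its littermates formed a fit of 6 libraries, and the difference between the models with all 12. The steps were tested on simulated data. Mean TPM was also compared with exact permutation tests (scipy 1.17.1). Transcript likeness came from blastn on GENCODE M21 transcripts. TPM keeps no depth, so the spread between mice is the only error available.

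The members and gene lists were chosen with earlier results of these data known. From each list, the 3 genes of highest mean TPM and up to 3 of largest change past the threshold were to be named, with the 3 nearest patterns of 7 markers; Lrat, Gfap, Vldlr, Myh11, Cnn1, Actg2, Pcsk7, Mfap4, Rgs5, Ogn, Fbln2, Pi16, Pdgfb, Tgfb2 and Tgfb3 were added after their values were seen. Alternatives were a pseudocount of 0.1, a filter at 5 TPM or none, unscaled or quantile normalized values, robust shrinkage, all libraries in 1 fit, and each mouse left out in turn. Leaving out mice for the lists, other settings for single listed genes, and 6 of 12 ratios, were chosen after seeing the data. A few genes that this rule names are not reported here.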

Additional observations from a re-analysis of the deposited data

How the results depend on the processing

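Pdgfrb, Vim and Pdgfra passed in both models, and Dpt and Tagln in YAP KO livers, under every alternative that tested them. In YAP KO livers 4 to 7 markers passed (7 without scaling, with Des and Reln added), and 5 with any mouse left out. In YAP KO TAZ HET livers 3 passed; 6 passed without scaling, with Thy1, Dpt and Tagln added, and 3 to 6 with a mouse left out, 6 without LM225. No marker passed for the difference between the models or between WT groups under any alternative. Without scaling 84.0% of calls were higher in YAP KO livers, and 82.2% with YAP KO TAZ HET, against 51.3% and 50.2% with it, and 37.5% and 34.8% of all genes tested were called higher, against 18.8% and 19.2% with it.

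Directions turned only for changes that had not passed, of which the greatest was that of Dpt between WT groups (-0.30). Ngfr in YAP KO livers was -0.20 with quantile normalization, and -0.21 to 0.29 with a mouse left out. Des in YAP KO TAZ HET livers was -0.0018 with quantile normalization, and -0.046 to 0.42 with a mouse left out. With a mouse left out the difference between the models was -0.11 to 0.18 for Vim, -0.019 to 0.27 for Pdgfrb, -0.12 to 0.34 for Des and -0.49 to 0.04 for Reln. Between WT groups Ngfr was 0.015 with pseudocount 0.1, 0.038 without scaling, 0.00037 in 1 fit of 12 libraries, and -0.18 to 0.25 with a mouse left out. Vim was 0.0014 without scaling and -0.20 to 0.086 with a mouse left out, and Thy1, Dpt and Des ranged from -0.032 to 0.19, -0.54 to 0.050 and -0.047 to 0.15. The cause was not tested. No paired analysis was possible because the labels number each mouse separately and do not say which mice shared a litter.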
